A study of Mus musculus with 4 samples.

Results

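Solute carriers are the membrane proteins that move amino acids, sugars, ions, metals, vitamins and metabolites across cell and organelle membranes. The genes described here were all those whose symbol starts with Slc and a digit and that had at least 200 unique molecular identifiers (UMIs) summed over 2 single-cell mRNA libraries, with Slc2a1, Slc16a1, Slc16a3 and Slc27a3 left out. Of 31054 annotated features, 375 had such a symbol and 145 of these entered, and they held 0.614% of all UMIs. They were thus selected on their UMI totals, which support nothing here. Just inside the minimum were Slc25a13 and Slc38a7 with 209 UMIs each, and just outside it were Slc7a2 with 197 and Slc28a2 with 187. Another 91 symbols of the kind had no UMI at all. The iron exporter Slc40a1 had 107 UMIs and stayed outside. Slc9a3r1, Slc9a3r2, Slc4a1ap and Slc7a6os matched by symbol but encode proteins that are not carriers.

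The cells came from dissociated ears of mice of C57BL/6 background on postnatal day 8, were enriched and sorted as live cells positive for CD31 and for the Cdh5CreERT2-Rtom reporter, and were measured with 10x 3′ chemistry. All cells thus carried the Cdh5-driven CreERT2 transgene and its red reporter, and cells without that reporter were left out by the sort. The 2 libraries are biological replicates per their labels, which do not say how many mice each one holds, and both belong to 1 group. Comparisons were therefore made between marker-gated classes of cells, each taken from both libraries. Their p-values measure only how far class differences varied between these 2 libraries, after the overall difference between the libraries was fitted. Antibody tag libraries of the same cells measure no solute carrier and were not used here.

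In the ear skin, blood endothelium forms arteries, capillaries, veins and, while vessels still grow, tip cells that lead sprouts. Lymphatic endothelium forms a separate network that drains tissue fluid. Carriers decide which nutrients and ions an endothelial cell takes up for itself and which ones it passes between blood or lymph and tissue. Many work in pairs: the light chains of the Slc7 family reach the plasma membrane only with a heavy chain such as Slc3a2.

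The libraries had 1745 and 2877 barcodes and 15989249 and 26675353 UMIs. After filters on genes, mitochondrial UMIs and doublets, 1497 and 2235 cells remained with medians of 8458 and 8980 UMIs. Of these, 1346 and 2010 were endothelial by their markers, and 971 and 1419 (72.1% and 70.6%) could be gated to 1 class. The gates held 276 and 556 lymphatic, 204 and 223 arterial, 201 and 266 capillary, 110 and 198 tip and 180 and 176 venous cells. A total of 445 endothelial cells lay within 0.1 of a gate's limits, so the classes are ranges along marker scores. The endothelial genes Pecam1 and Cdh5, which the gates used and so fixed in part, were at 379 CPM or more in every library and class. CPM are UMI counts scaled to the total of each library and class. For the solute carriers and other tested genes below, that total was also adjusted by edgeR's TMM factor, and for cell type markers it was not. The 9 immune markers summed to 4.46 to 15.2 CPM in the gates, most of it from Fcer1g and Cd68, and 4 of the 9, Ptprc among them, had no UMI in any gate. Pericyte markers summed to 53.6 and 31.1 CPM in capillary cells, against 4.92 to 27.4 CPM in the other gates. Only 3 barcodes occurred in both libraries.

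Across the 5 classes, 69 of the 145 solute carrier genes (47.6%) differed in edgeR's joint test, against 49.6% of all 10572 genes tested. The share was close to that of all genes. Of the 145, 83 (57.2%) were called in at least 1 of the 5 class comparisons, against 57.2% of all genes. Called in none of them and not in the joint test were 60 of the 145, where 42.0% of all genes were, again a similar share. All 145 passed the low-count filter. The class with the highest mean level was arterial for 57 genes, lymphatic for 30, tip for 27, venous for 16 and capillary for 15. This count was not made over all genes, so it shows no lean particular to solute carriers. Summed over the 145, arterial cells had 7844 and 7881 CPM, and the other 4 classes had between 5455 and 6191 CPM, so arterial cells lay above all others in both libraries. That lead came mostly from Slc6a6 and the scaffold Slc9a3r2: over the other 143 genes, arterial cells had 5524 and 5922 CPM and lymphatic cells 5713 and 5993 CPM. These 2 genes were singled out after their values were seen.

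**Figure D1:**
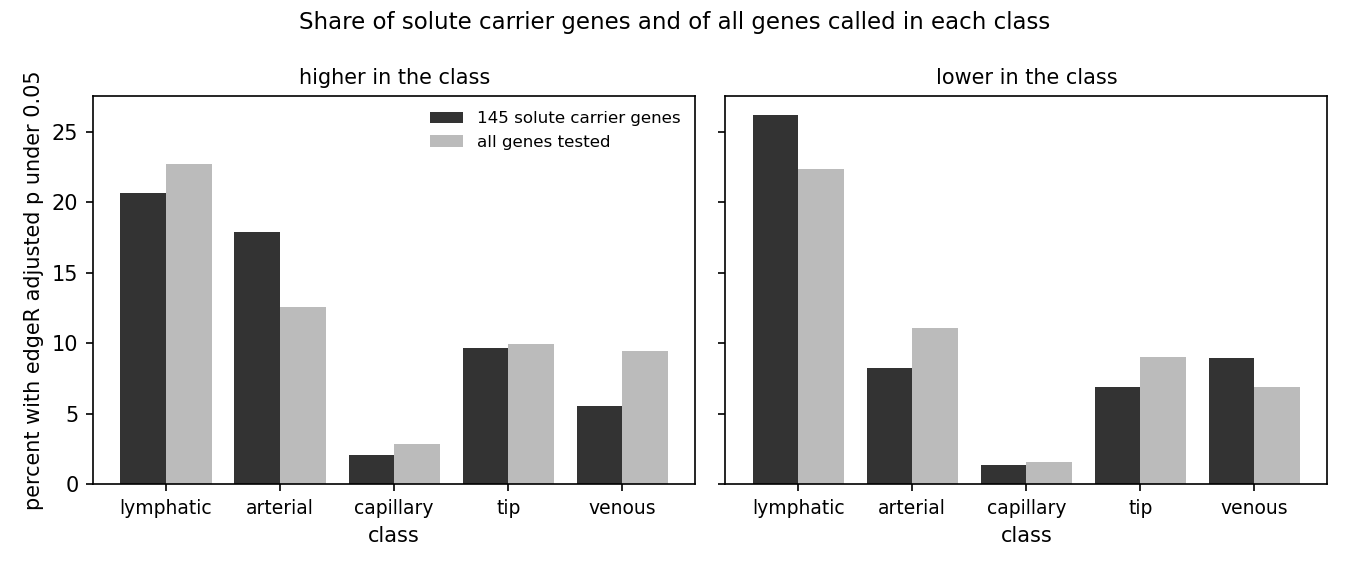
Bars give the percent of the 145 solute carrier genes (dark) and of all 10572 genes tested (light) with an edgeR adjusted p under 0.05, split into genes higher in a class (left panel) and lower in it (right panel). In arterial cells 17.9% of the solute carrier genes were called higher, against 12.6% of all genes, and in capillary cells both shares were under 3%.

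A stricter view kept genes whose level in 1 class was at least 2 times that in each other class in both libraries. At least 10 UMIs in that class were also required in each library. Both conditions held for 10 of the 145 genes (6.90%), against 6.68% of all genes. They were Slc45a3, Slc38a4, Slc41a1 and Slc25a29 in lymphatic cells, Slc6a6, Slc35f1 and Slc9a3r1 in arterial cells, and Slc14a1, Slc7a5 and Slc16a6 in tip cells. The share of all genes that met this for lymphatic cells was 3.82%, for arterial cells 1.82% and for tip cells 0.199%. No solute carrier gene met it for capillary or venous cells, where 0.0662% and 0.776% of all genes did. Of the 10 genes, Slc38a4, Slc25a29, Slc35f1 and Slc9a3r1 reached the minimum of 200 UMIs only with those of their high class. Slc38a4 held 280 of its 357 UMIs in lymphatic cells and Slc25a29 134 of 218. Slc35f1 held 99 of 285 in arterial cells and Slc9a3r1 90 of 241. Slc8a1, Slc10a6, Slc26a10 and Slc39a8, described below, likewise depended on a class where they were high. The shares of all genes did not face the minimum of 200 UMIs.

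**Figure D2:**
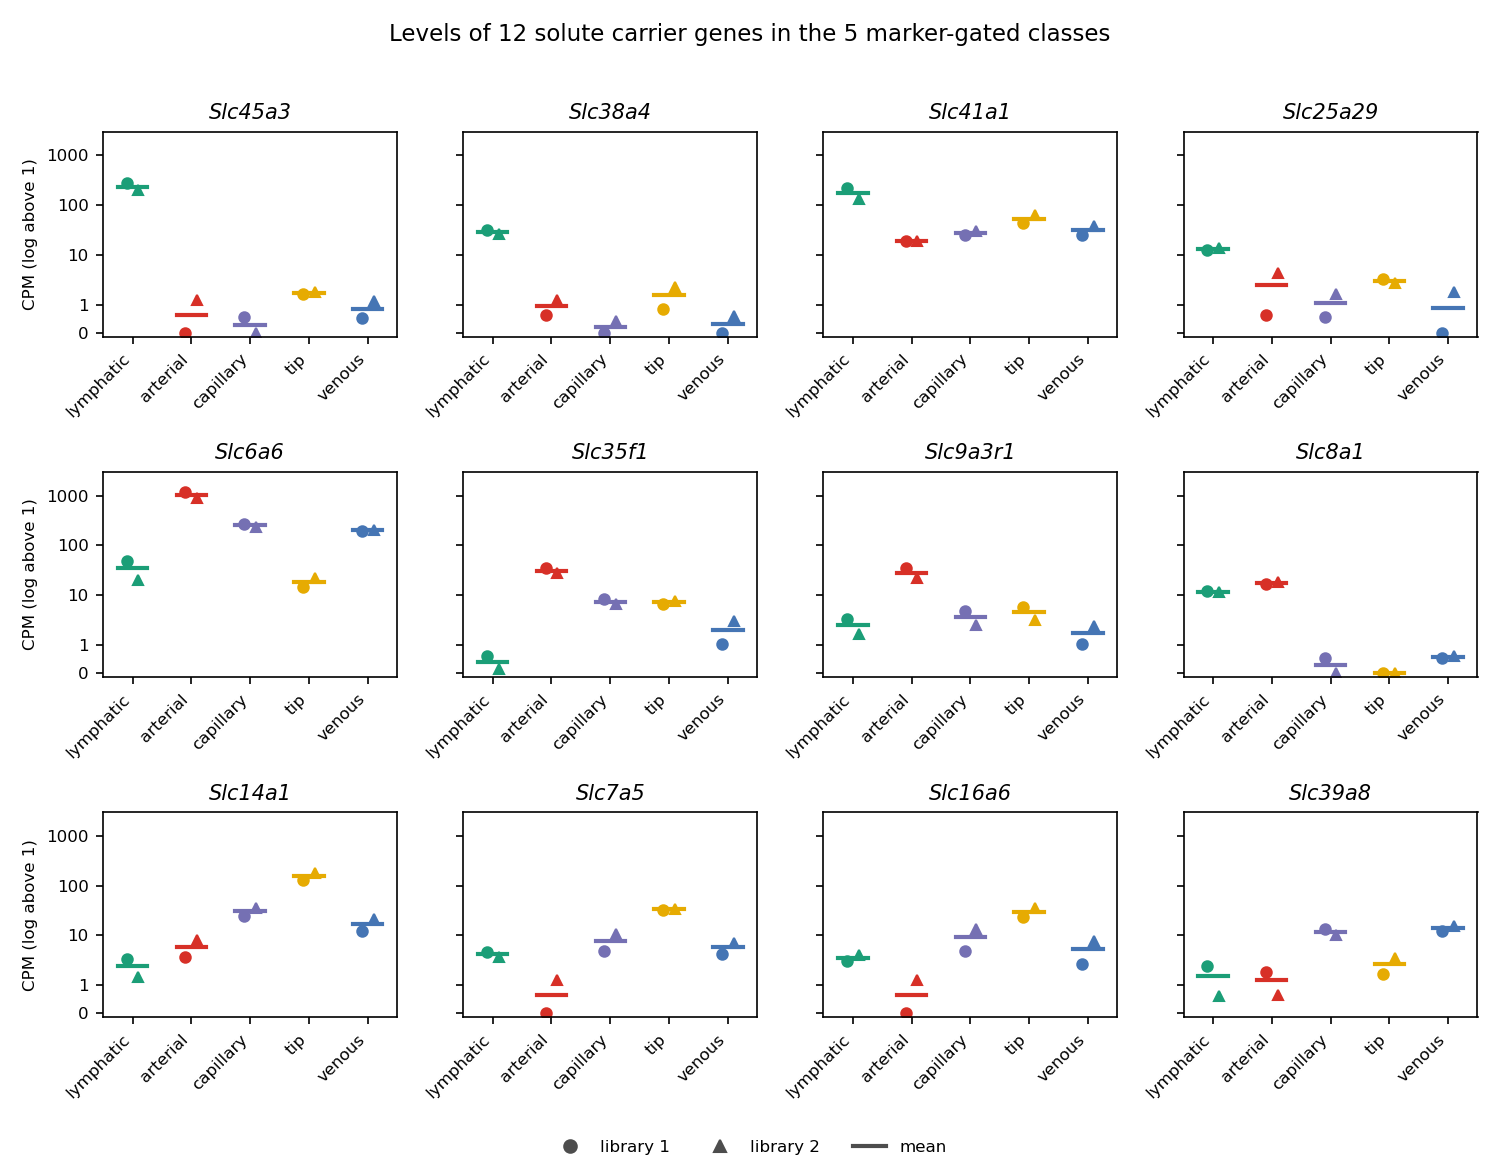
Each panel shows the level of 1 gene in CPM (axis linear from 0 to 1 and logarithmic above) in the 5 classes, with library 1 as a circle, library 2 as a triangle and their mean as a line. Slc45a3 was at 273 and 201 CPM in lymphatic cells and at most 1.80 CPM elsewhere, Slc6a6 peaked in arterial cells, and Slc14a1, Slc7a5 and Slc16a6 peaked in tip cells.

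Lymphatic cells were set against the mean log level of the 4 blood classes. They were higher in 30 of the 145 genes, where the share of all genes was 22.7%, and lower in 38, where it was 22.4%. The median log2 change of the 145 was -0.027, against 0.016 over all genes. Slc45a3 and Slc38a4, carriers of sugars and of neutral amino acids, had the largest rises by fitted log2 change, and the magnesium carrier Slc41a1 and the sodium-calcium exchanger Slc8a1 rose as well. The zinc exporter Slc30a1, the urea channel Slc14a1 and the taurine carrier Slc6a6 fell. The 6 fibroblast markers summed to 26.8 and 37.3 CPM in lymphatic cells, against 59.3 and 7.91 CPM in venous cells and 2.58 to 14.8 CPM in the other blood classes. Of their 338 UMIs in lymphatic cells 305 were of the collagen gene Col3a1. The rest were 15 of Col1a2, 8 of Dcn, 7 of Col1a1, 2 of Pdgfra and 1 of Lum. The part of the fibroblast markers in the lymphatic results was not tested.

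Slc45a3, a proton-coupled sugar carrier also called prostein, had 273 and 201 CPM in lymphatic cells, against 0 and 1.27 in arterial, 0.550 and 0 in capillary, 1.69 and 1.80 in tip and 0.536 and 1.20 in venous cells. Lymphatic cells held 2232 of its UMIs and the 4 blood gates together 12, and no blood library reached 2 CPM. The mean was 237 ± 51.3 CPM against 0.881 ± 0.266 CPM (SD, n = 2 libraries), with a log2 change of 8.28 ± 0.20 (SE, edgeR adjusted p = 3.85e-13). Its relative Slc45a4 had 30.5 and 40.9 CPM in lymphatic cells, against 50.9 and 62.7 in arterial, 3.30 and 3.31 in capillary, 0.843 and 2.71 in tip and 4.29 and 3.61 in venous cells. Lymphatic and arterial cells were both high and the remaining 3 classes stayed under 5 CPM, so Slc45a4 rose in lymphatic cells (log2 change 2.52 ± 0.17, adjusted p = 1.32e-08) although the arterial level was above the lymphatic one in both libraries. The myo-inositol carrier Slc5a3 was also higher in arterial than in lymphatic cells, with 36.6 and 82 CPM in lymphatic cells, against 65.3 and 105 in arterial, 14.3 and 23.2 in capillary, 5.06 and 14.9 in tip and 27.3 and 58.4 in venous cells, and rose in lymphatic cells by a smaller step (log2 change 1.02 ± 0.13, adjusted p = 8.47e-06). Slc5a3 overlaps Mrps6 on its own strand, so UMIs of the pair may be mixed. Of the 9 sugar and inositol carriers, 4 rose in lymphatic cells (44.4%) and 2 fell (22.2%), where 22.7% and 22.4% of all genes did. The falls were of the urate carrier Slc2a9 and the sugar carrier Slc50a1, both with a log2 change of -1.81 (edgeR adjusted p = 0.00260 and 1.45e-09).

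Slc41a1, a carrier of magnesium, had 226 and 132 CPM in lymphatic cells, against 18.8 and 19 in arterial, 25.3 and 30.6 in capillary, 43 and 63.6 in tip and 25.2 and 39.1 in venous cells. Both lymphatic libraries lay above every blood library, and tip cells came next. The mean was 179 ± 67 CPM against 33.1 ± 7.07 CPM, with a log2 change of 2.49 ± 0.18 (SE, edgeR adjusted p = 2.44e-08). Slc41a1 and Slc45a3 lie on the same strand of chromosome 1, at chr1:131827493-131848865 and chr1:131962967-131982969 (mm10), 114102 bases apart with Rab29 and Nucks1 between them. Rab29, a small GTPase of membrane traffic, had 8.93 and 7.62 CPM in lymphatic cells, against 3.31 to 9.35 CPM in the blood classes, and missed the threshold (log2 change 0.59 ± 0.27, edgeR adjusted p = 0.0882). Nucks1, a nuclear DNA-binding protein, had 220.2 and 279 CPM, against 132 to 206 CPM in the blood classes, and rose by a log2 change of 0.56 ± 0.08 (edgeR adjusted p = 3.54e-05).

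**Figure D3:**
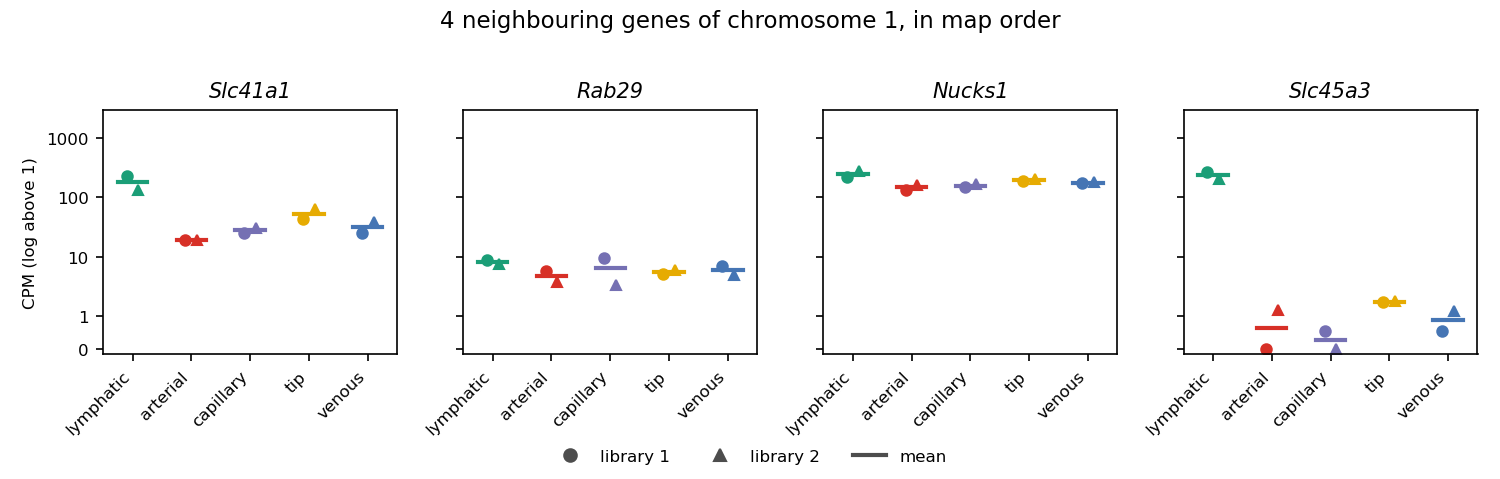
Levels in CPM (axis linear from 0 to 1 and logarithmic above) of 4 neighbouring genes of chromosome 1 in the 5 classes, with library 1 as a circle, library 2 as a triangle and the mean as a line. The outer genes Slc41a1 and Slc45a3 were highest in lymphatic cells in both libraries, and the inner genes Rab29 and Nucks1 varied less between classes.

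Promoter sequences of the neighbouring pair are shown because both genes were highest in lymphatic cells. They are RefSeq windows of 300 bases on GRCm38.p6 from 250 bases before to 50 after a start site. Slc45a3 has starts at chr1:131962665-131962964 and chr1:131970359-131970658, and Slc41a1 has one at chr1:131827762-131828061, all on the plus strand. Lower case letters run 5′ to 3′ along the gene, and no ETS core, AP-1, amino acid response or E-box motif was found in them, so no letter is in capitals.
Slc45a3 first start: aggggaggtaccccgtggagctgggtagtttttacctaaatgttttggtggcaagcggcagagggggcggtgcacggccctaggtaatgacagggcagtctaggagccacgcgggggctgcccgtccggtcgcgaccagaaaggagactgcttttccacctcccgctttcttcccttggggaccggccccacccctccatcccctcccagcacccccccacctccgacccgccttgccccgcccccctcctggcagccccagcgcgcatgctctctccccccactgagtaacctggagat
Slc45a3 second start: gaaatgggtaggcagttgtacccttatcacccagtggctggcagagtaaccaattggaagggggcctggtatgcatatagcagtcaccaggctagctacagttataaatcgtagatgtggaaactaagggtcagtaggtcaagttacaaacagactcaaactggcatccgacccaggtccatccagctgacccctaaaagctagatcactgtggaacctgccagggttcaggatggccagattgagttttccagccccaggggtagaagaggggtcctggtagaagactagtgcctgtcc
Slc41a1: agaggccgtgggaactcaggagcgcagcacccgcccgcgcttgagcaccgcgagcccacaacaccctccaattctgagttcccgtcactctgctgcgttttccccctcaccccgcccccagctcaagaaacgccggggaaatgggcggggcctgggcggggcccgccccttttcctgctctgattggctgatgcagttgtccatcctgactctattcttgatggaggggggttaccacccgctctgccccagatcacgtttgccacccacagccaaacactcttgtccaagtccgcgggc
The first Slc45a3 window holds 17 CpG dinucleotides and the Slc41a1 window 19, whereas the second Slc45a3 window holds 2. The median was 18 over the 151 windows found for 110 of the 145 genes and 7 over all 32851 windows. Which Slc45a3 start these cells used cannot be read from 3′ counts.

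Slc38a4, a sodium-coupled carrier of small neutral amino acids, had 32 and 26.3 CPM in lymphatic cells, against 0.628 and 1.27 in arterial, 0 and 0.413 in capillary, 0.843 and 2.25 in tip and 0 and 0.602 in venous cells. Every blood library was below 3 CPM and both lymphatic libraries above 26 CPM, giving a log2 change of 5.48 ± 0.31 (SE, edgeR adjusted p = 1.89e-09). Slc25a29, which carries basic amino acids into mitochondria, had 12.9 and 13.7 CPM in lymphatic cells, against 0.628 and 4.44 in arterial, 0.550 and 1.65 in capillary, 3.37 and 2.71 in tip and 0 and 1.81 in venous cells, and rose likewise (log2 change 2.97 ± 0.36, adjusted p = 8.15e-06). Slc7a1, the arginine carrier at the plasma membrane, was also higher in lymphatic cells, with 34.8 ± 1.73 CPM against 19.9 ± 0.845 CPM (log2 change 0.80 ± 0.17, adjusted p = 0.00118). In the whole group of 20 amino acid and peptide carriers, 5 rose and 5 fell (25% each), where 22.7% and 22.4% of all genes did. The falls included the glutamine exchanger Slc1a5 (log2 change -0.93, edgeR adjusted p = 0.00107), the creatine carrier Slc6a8 (-0.92, adjusted p = 0.00337) and the heavy chain Slc3a2 (-1.30, adjusted p = 5.07e-08).

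Ion carriers split. Slc8a1, the plasma membrane exchanger of sodium for calcium, had 12 and 11.7 CPM in lymphatic cells, against 17 and 18.4 in arterial, 0.550 and 0 in capillary, 0 and 0 in tip and 0.536 and 0.602 in venous cells. Its UMIs lay in lymphatic and arterial cells almost alone, with 2 in venous, 1 in capillary and 0 in tip cells, and the fit gave a log2 change of 4.22 ± 0.42 (SE, edgeR adjusted p = 1.76e-06). That fit averages log levels, and classes near 0 enlarge it: by summed UMIs per total, lymphatic cells were 2.90 times the blood classes, with an exact 95% interval of 2.10 to 4.03, and both arterial libraries lay above both lymphatic ones. By the same measure the ratio was 2.53 for Slc45a4 and 4.89 for the steroid carrier Slc10a6. Slc8b1, the mitochondrial exchanger of sodium for calcium, rose by a log2 change of 1.26 (edgeR adjusted p = 4.56e-05), and the phosphate carrier Slc20a1 rose by 0.79 (adjusted p = 0.000124). In contrast, the chloride cotransporters Slc12a2, Slc12a4 and Slc12a7 fell by 1.56, 0.80 and 1.47 on the log2 scale (edgeR adjusted p = 1.01e-05, 0.000420 and 2.44e-05). Slc26a10, a member of an anion exchanger family, had no UMI in either lymphatic library and 144 in the blood classes (edgeR adjusted p = 0.00114). With 3 UMIs over both lymphatic libraries put in place of 0, it was 32.9-fold lower. The exact 95% interval for counting error starts at 26.4-fold. Venous cells held 1 of the 144 UMIs, so lymphatic cells were not shown to be lower than venous cells. Of 18 ion, phosphate and sulfate carriers, 5 rose (27.8%) and 7 fell (38.9%), where 22.7% and 22.4% of all genes did.

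Of 16 zinc carriers 3 fell (18.8%) and 1 rose (6.25%), where 22.4% and 22.7% of all genes did, so neither share was above that of all genes. The exporter Slc30a1 had 2.77 and 4.63 CPM in lymphatic cells, against 32.7 and 63.4 in arterial, 39.6 and 39.7 in capillary, 21.1 and 29.3 in tip and 15 and 34.9 in venous cells. Each lymphatic library was below each blood library, with a log2 change of -3.12 ± 0.25 (SE, edgeR adjusted p = 7.52e-08). The importer Slc39a10 had 27.7 and 30.8 CPM in lymphatic cells, against 167 and 206 in arterial, 124 and 184 in capillary, 116 and 126 in tip and 63.7 and 123 in venous cells, and fell too (log2 change -2.21 ± 0.15, adjusted p = 1.14e-08). The zinc and manganese importer Slc39a8 fell by 1.95 on the log2 scale (edgeR adjusted p = 0.00779) and Slc39a9 rose by 0.76 (adjusted p = 0.000748). The copper carrier Slc31a1 and its relative Slc31a2 rose by 0.88 and 0.97 (edgeR adjusted p = 0.000322 and 1.74e-05).

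Further lymphatic differences lay in carriers of organic solutes. Slc10a6, a sodium-coupled carrier of sulfated steroids, had 13.2 and 15.1 CPM in lymphatic cells, against 1.26 and 0.634 in arterial, 0.550 and 8.27 in capillary, 0 and 0 in tip and 4.82 and 6.02 in venous cells. Both lymphatic libraries were above every blood library, with a log2 change of 3.73 ± 0.49 (SE, edgeR adjusted p = 2.77e-05). Slc35f1, an orphan of the nucleotide sugar carrier family, held 3 UMIs in lymphatic and 162 in blood cells, which put lymphatic cells 37-fold lower with an exact 95% interval of 12.4 to 181 for counting error (edgeR adjusted p = 7.71e-06). DESeq2 called 39 of the 145 genes in the lymphatic comparison in place of 68, and a stricter cell filter, which left 171 lymphatic cells of 832, called 42.

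**Figure D4:**
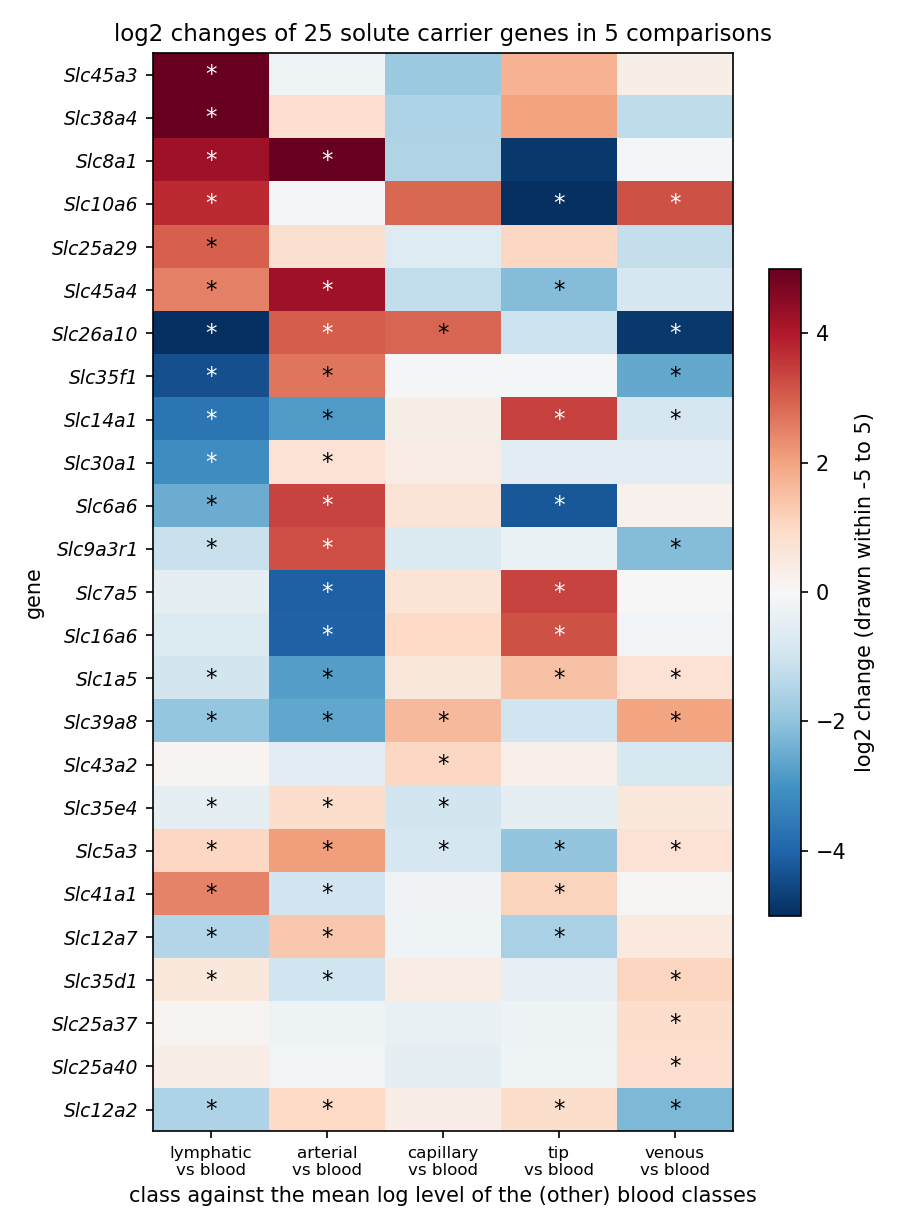
Colour gives the log2 change of 25 solute carrier genes (rows) in 5 comparisons (columns): lymphatic against the mean log level of the 4 blood classes, and each blood class against the mean log level of the other 3. Stars mark an edgeR adjusted p under 0.05 and colours end at 5 in either direction. Slc45a3 was called in the lymphatic column alone, Slc6a6 rose in arterial and fell in tip and lymphatic cells, and Slc5a3 was called in all 5 columns.

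Arterial cells were set against the other 3 blood classes. They were higher in 26 of the 145 genes, where 12.6% of all genes were, and lower in 12, where 11.1% of all genes were. The median log2 change was 0.11, against -0.0026 over all genes. Carriers of the osmolytes taurine and myo-inositol and of calcium, sodium, potassium and chloride rose, together with both Slc9a3r scaffolds, whereas exchangers of large neutral amino acids and glutamine fell. Of 9 sugar and inositol carriers 4 rose and 1 fell, and of 18 ion carriers 5 rose.

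Slc6a6, the sodium-coupled taurine carrier, had 1180 and 909 CPM in arterial cells, against 271 and 234 in capillary, 14.3 and 22.1 in tip, 196 and 204 in venous and 49.3 and 19.9 in lymphatic cells. Arterial cells were above all other cells in both libraries, capillary and venous cells formed a middle group, and tip and lymphatic cells were lowest. The mean was 1045 ± 191 CPM against 157 ± 5.01 CPM over the other blood classes, with a log2 change of 3.37 ± 0.16 (SE, edgeR adjusted p = 2.17e-09). Slc5a3, the myo-inositol carrier, was also highest in arterial cells in both libraries and averaged 85.3 ± 28.2 CPM against 23.8 ± 11.7 CPM (log2 change 2.10 ± 0.15, adjusted p = 1.18e-07). Library 2 had the higher Slc5a3 level in each of the 5 classes, and the share of UMIs from immediate-early and stress genes was also higher in library 2 in the 4 blood classes (1.95% and 1.44% in arterial cells of libraries 2 and 1). With the top 20% of cells by stress share left out, the arterial log2 change of Slc5a3 was 1.98 (edgeR adjusted p = 3.95e-05).

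Slc45a4 was at 50.9 and 62.7 CPM in arterial cells and at most 4.29 CPM in any other blood library (log2 change 4.24 ± 0.21, adjusted p = 2.49e-09). Slc8a1 held 56 UMIs in arterial cells and 3 in the other blood classes, a ratio of 66.1 with an exact 95% interval of 21.5 to 330.1 (edgeR adjusted p = 9.41e-07). The mitochondrial Slc8b1 rose as well (log2 change 1.03 ± 0.27, adjusted p = 0.0122). Among cation-chloride cotransporters, Slc12a7, which couples potassium to chloride, averaged 44.5 ± 7.30 CPM against 18.6 ± 1.93 CPM (log2 change 1.37 ± 0.19, adjusted p = 8.70e-05). Slc12a2, which also moves sodium inward, averaged 46.1 ± 2.97 CPM against 28.6 ± 2.12 CPM (log2 change 1.01 ± 0.19, adjusted p = 0.00117). Slc26a10 had 22.6 and 15.8 CPM in arterial cells, against 26.4 and 11.2 in capillary, 2.53 and 1.80 in tip and 0.536 and 0 in venous cells, so it was high in arterial and capillary cells and low in tip and venous cells (log2 change 3.02 ± 0.39, adjusted p = 6.73e-05). By summed UMIs per total, arterial cells were 2.60 times the other blood classes.

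The scaffold proteins Slc9a3r1 and Slc9a3r2, also called NHERF proteins, tether carriers and receptors to the cortical cytoskeleton. Slc9a3r1 had 34.5 and 22.2 CPM in arterial cells, against 4.95 and 2.48 in capillary, 5.90 and 3.16 in tip, 1.07 and 2.41 in venous and 3.39 and 1.64 in lymphatic cells. The arterial libraries stood above all others, with a log2 change of 3.21 ± 0.30 (SE, edgeR adjusted p = 1.59e-06). Slc9a3r2 had 1141 and 1050 CPM in arterial cells, against 565 and 581 in capillary, 369 and 329.7 in tip, 311 and 329 in venous and 177 and 175 in lymphatic cells. The 5 classes had the same order in both libraries, and arterial cells were higher with a log2 change of 1.45 ± 0.07 (SE, edgeR adjusted p = 2.20e-09). Slc35f1 was likewise highest in arterial cells, with 31.2 ± 4.71 CPM against 5.56 ± 0.288 CPM (log2 change 2.69 ± 0.28, adjusted p = 5.12e-06).

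The heavy chain Slc3a2 rose in arterial cells, where its light chain Slc7a5 fell. Slc3a2 had 285 and 343 CPM in arterial cells, against 115 and 179.9 in capillary, 109.6 and 142 in tip, 138 and 182 in venous and 65.9 and 75.9 in lymphatic cells. Both arterial libraries were above every other library and both lymphatic libraries below, with a log2 change of 1.13 ± 0.09 (SE, edgeR adjusted p = 4.28e-07). Its large neutral amino acid light chain Slc7a5 had 0 and 1.27 CPM in arterial cells, against 4.95 and 10.8 in capillary, 32.9 and 33.8 in tip, 4.29 and 7.22 in venous and 4.62 and 3.74 in lymphatic cells. Arterial cells held 2 of its UMIs and the other blood classes 169, which put arterial cells 23.9-fold lower with an exact 95% interval of 6.50 to 199 (edgeR adjusted p = 0.000388). The cationic and neutral amino acid light chain Slc7a7 was higher in arterial cells, with 50.2 ± 4.34 CPM against 35 ± 0.585 CPM (log2 change 0.52 ± 0.15, adjusted p = 0.0183). A further light chain, Slc7a6, averaged 8.53 ± 3.18 CPM against 7.91 ± 1.73 CPM and did not pass (log2 change 0.12 ± 0.30, adjusted p = 0.835).

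**Figure D5:**
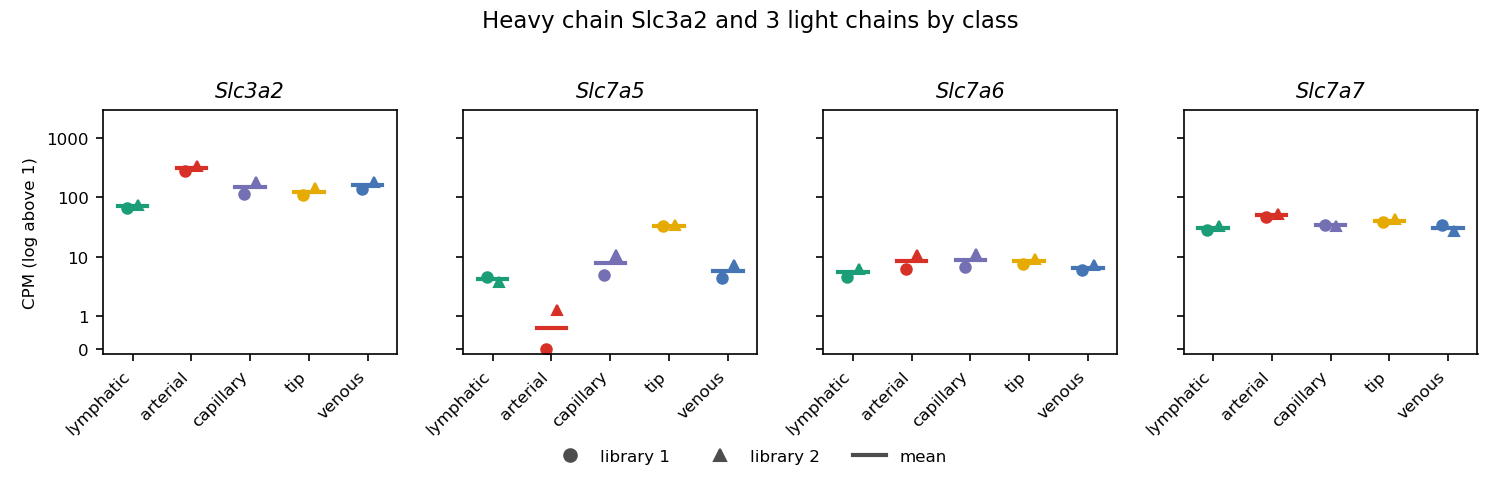
Levels in CPM (axis linear from 0 to 1 and logarithmic above) of the heavy chain Slc3a2 and the light chains Slc7a5, Slc7a6 and Slc7a7 in the 5 classes, with library 1 as a circle, library 2 as a triangle and the mean as a line. Slc3a2 peaked in arterial cells at 285 and 343 CPM, where Slc7a5 was at 0 and 1.27 CPM, and Slc7a5 peaked in tip cells.

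The RefSeq promoter window of Slc3a2 on GRCm38.p6, at chr19:8713848-8714147 on the minus strand, is shown because Slc3a2 was highest in arterial cells and the window holds one of the motifs searched for. Capitals mark CCGGAA, the core that ETS family factors bind.
Slc3a2: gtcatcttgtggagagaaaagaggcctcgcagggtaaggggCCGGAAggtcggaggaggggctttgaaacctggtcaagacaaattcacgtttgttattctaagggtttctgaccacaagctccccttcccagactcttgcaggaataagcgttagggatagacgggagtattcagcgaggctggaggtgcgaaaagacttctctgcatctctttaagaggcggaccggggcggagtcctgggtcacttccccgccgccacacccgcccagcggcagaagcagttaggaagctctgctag
CCGGAA was found on either strand in 47 of the 151 windows of solute carrier genes (31.1%) and in 14.9% of all windows of the same length. The amino acid response element TGATGCAA was found in 3 of the 151 windows (1.99%), which belong to Slc50a1 and to both starts of Slc7a7, and in 0.895% of all windows. The E-box CACGTG was in 13.9% of the 151 and 7.15% of all windows, and the AP-1 motif TGANTCA in 5.30% and 7.81%. No motif's letters contain another motif, and the windows of the solute carrier genes also hold more CpG.

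Of the 20 amino acid and peptide carriers, 4 rose in arterial cells (20%) and 3 fell (15%), where 12.6% and 11.1% of all genes did. Some of the falls follow. Slc1a5, the sodium-dependent exchanger of glutamine, had 6.91 and 11.4 CPM in arterial cells, against 45.1 and 58.3 in capillary, 85.2 and 82.1 in tip and 42.9 and 71.6 in venous cells. The arterial libraries were below all other blood libraries, with a log2 change of -2.76 ± 0.28 (SE, edgeR adjusted p = 3.94e-06). The neutral amino acid carrier Slc43a1 fell by 2.28 on the log2 scale (edgeR adjusted p = 0.0293). The monocarboxylate carrier family member Slc16a6 held 2 UMIs in arterial cells and 167 in the other blood classes (edgeR adjusted p = 0.000272), and the urea channel Slc14a1 averaged 6.00 ± 3.16 CPM against 67.5 ± 17.1 CPM (adjusted p = 6.68e-06). The nucleoside carriers Slc29a1 and Slc29a3 fell by 0.89 and 1.39 (edgeR adjusted p = 4.54e-05 and 0.0237). DESeq2 called 22 genes in the arterial comparison in place of 38, and the stricter cell filter, with 149 arterial cells of 427, called 21.

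Tip cells were higher in 14 genes, where 9.97% of all genes were, and lower in 10, where 9.02% were. The gains were in carriers of urea, of large neutral amino acids and glutamine and of monocarboxylates, and the losses were in the taurine and inositol carriers and in Slc45a4. Of the 20 amino acid carriers 3 rose and 2 fell. None of the 16 zinc carriers and none of the 19 nucleotide sugar carriers passed by edgeR's test, against 1 of each at an unadjusted p under 0.05 and none with DESeq2.

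Slc14a1, a urea channel known from red cells and vessel walls, had 129.9 and 181 CPM in tip cells, against 3.77 and 8.24 in arterial, 24.2 and 36.4 in capillary, 12.3 and 21.7 in venous and 3.39 and 1.49 in lymphatic cells. Both tip libraries were above every other library, and capillary cells came next. The mean was 155 ± 36 CPM against 17.8 ± 6.13 CPM, with a log2 change of 3.41 ± 0.17 (SE, edgeR adjusted p = 1.29e-08). Summed erythroid markers were at 12.1 and 27.8 CPM in tip cells, against 7.91 to 26.4 CPM in the other blood classes, and their part in the level of this red cell gene was not tested. Slc7a5 had 32.9 and 33.8 CPM in tip cells and at most 10.8 CPM in any other library (log2 change 3.38 ± 0.33, adjusted p = 5.47e-06). Slc16a6 had 23.6 and 35.6 CPM in tip cells, against 0 and 1.27 in arterial, 4.95 and 13.6 in capillary and 2.68 and 7.82 in venous cells, with tip cells above the rest in both libraries (log2 change 3.19 ± 0.32, adjusted p = 7.40e-06).

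Slc1a5 was highest in tip cells in both libraries and averaged 83.6 ± 2.20 CPM against 39.4 ± 11 CPM (log2 change 1.46 ± 0.19, adjusted p = 9.55e-05). The neutral amino acid carrier Slc43a1 rose by 1.64 (edgeR adjusted p = 0.0244). Slc3a2, the heavy chain of Slc7a5, fell by 0.63 in tip cells (edgeR adjusted p = 0.000666). Slc41a1 averaged 53.3 ± 14.5 CPM against 26.3 ± 4.58 CPM (log2 change 1.11 ± 0.26, adjusted p = 0.00770).

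On the other side, Slc6a6 was at 14.3 and 22.1 CPM in tip cells, against 196 CPM or more in every other blood library (log2 change -4.24 ± 0.27, adjusted p = 1.25e-07). Slc5a3 averaged 9.97 ± 6.94 CPM against 48.9 ± 18.8 CPM (log2 change -1.98 ± 0.22, adjusted p = 1.64e-05) and Slc45a4 1.77 ± 1.32 CPM against 21.4 ± 2.64 CPM (log2 change -2.17 ± 0.42, adjusted p = 0.00207). Slc12a7 fell by 1.63 on the log2 scale (edgeR adjusted p = 0.000376), whereas Slc12a2 rose by 0.87 (adjusted p = 0.00484). Dividing cells made up 14.5% and 17.7% of tip cells, against 4.04% to 12.4% in the other blood classes. With dividing cells left out 19 genes were called in tip cells in place of 24, and the stricter cell filter, with 120 tip cells of 308, called 15. Slc41a1 missed the threshold with Leiden clusters in place of gates (adjusted p = 0.363).

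Venous cells were higher in 8 genes, where 9.48% of all genes were, and lower in 13, where 6.91% were. Their gains were in a metal carrier, mitochondrial carriers and a nucleotide sugar carrier, and their losses in chloride-coupled carriers and the Slc9a3r scaffolds. The metal importer Slc39a8 had 12.3 and 15.6 CPM in venous cells, against 1.88 and 0.634 in arterial, 13.2 and 10.3 in capillary, 1.69 and 3.61 in tip and 2.46 and 0.598 in lymphatic cells. Venous and capillary cells were high and arterial, tip and lymphatic cells low, without overlap, and venous cells had a log2 change of 1.96 ± 0.42 (SE, edgeR adjusted p = 0.00420). Slc35d1, which carries UDP-sugars into the endoplasmic reticulum, had 15 and 18.7 CPM in venous cells, against 5.65 and 5.70 in arterial, 13.8 and 9.92 in capillary and 6.75 and 8.57 in tip cells. The venous libraries were the highest of the blood libraries (log2 change 1.06 ± 0.25, adjusted p = 0.00827). The mitochondrial iron importer Slc25a37 averaged 14.5 ± 1.60 CPM against 7.71 ± 1.80 CPM (log2 change 0.90 ± 0.27, adjusted p = 0.0368) and Slc25a40, a mitochondrial carrier of glutathione, 15.1 ± 4.37 CPM against 8.45 ± 0.236 CPM (log2 change 0.84 ± 0.24, adjusted p = 0.0299). Slc1a5 and Slc5a3 were also called higher in venous cells (log2 change 0.74 and 0.73, edgeR adjusted p = 0.0204 and 0.00692). Tip cells were higher for the first, however, and arterial cells for the second. By summed UMIs per total, the ratio of venous cells to the other blood classes was 1.13 for Slc1a5 (exact interval 0.956 to 1.33). For Slc5a3 it was 1.15 (0.946 to 1.39), so neither gene was shown to be higher in venous cells by that measure.

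Slc12a2, the cotransporter of sodium, potassium and chloride, had 6.43 and 10.8 CPM in venous cells, against 44 and 48.2 in arterial, 32.5 and 33.1 in capillary, 51.4 and 37.4 in tip and 7.70 and 10.2 in lymphatic cells. Venous and lymphatic values overlapped and the other 3 classes were all above 30 CPM, and venous cells had a log2 change of -2.23 ± 0.25 (SE, edgeR adjusted p = 1.64e-05). Slc26a10 held 1 UMI in venous cells and 143 in the other blood classes (edgeR adjusted p = 0.000511), and Slc35f1 averaged 2.04 ± 1.37 CPM against 15.3 ± 1.74 CPM (adjusted p = 0.00105). Slc9a3r1 averaged 1.74 ± 0.945 CPM against 12.2 ± 4.14 CPM (log2 change -2.16 ± 0.51, adjusted p = 0.00840). Smooth muscle markers summed to 74.7 and 70.6 CPM in venous cells, against 24.6 to 57.4 CPM in the other blood classes, and their part was not tested. Of their 261 UMIs in venous cells 231 were of Tagln, 23 of Acta2, 5 of Des, 1 of Myh11 and 1 of Cnn1. Fibroblast markers summed to 59.3 CPM in library 1 and 7.91 CPM in library 2 of the venous cells, and 118 of the 122 UMIs were of Col3a1. Stress genes took 1.72% and 2.20% of UMIs in venous cells, against 0.918% to 1.95% in the other blood classes. With the top 20% of cells by stress share left out 14 genes were called in place of 21. Among the 6 largest venous rises and the 4 largest falls, Slc12a2 and Slc35f1 passed under every alternative and the other 8 missed the threshold under at least 1. DESeq2 called 8 and the stricter cell filter, with 116 venous cells of 356, called 6.

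Capillary cells were set apart least. They were higher in 3 genes, where 2.87% of all genes were, and lower in 2, where 1.59% were. Slc26a10 was at 26.4 and 11.2 CPM in capillary cells, which overlaps the arterial range, and rose with a log2 change of 2.90 ± 0.38 (SE, edgeR adjusted p = 0.000468), or 2.58 times the other blood classes by summed UMIs per total. Slc39a8 (log2 change 1.62 ± 0.42, adjusted p = 0.0402) was shared with venous cells in the same way. The neutral amino acid carrier Slc43a2 had 15.4 and 21.9 CPM in capillary cells, against 8.79 and 7.61 in arterial, 7.59 and 16.2 in tip and 4.29 and 10.2 in venous cells. Its 2 capillary values overlapped the tip range (log2 change 1.05 ± 0.25, adjusted p = 0.0296). The orphan carrier Slc35e4 averaged 15.5 ± 1.43 CPM against 30.9 ± 3.62 CPM (log2 change -0.93 ± 0.20, adjusted p = 0.0130) and Slc5a3 18.7 ± 6.26 CPM against 46 ± 19 CPM (log2 change -0.85 ± 0.19, adjusted p = 0.0174). None of the 5 is firm: Slc39a8, Slc43a2, Slc35e4 and Slc5a3 missed the threshold with DESeq2 and Slc26a10 with the stricter cell filter (adjusted p = 0.0580) and with Leiden clusters in place of gates (adjusted p = 0.430).

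Mitochondrial carriers are the largest family, with 32 genes. In the joint test 9 of the 32 (28.1%) passed, where 49.6% of all genes did, and none was called in capillary cells, where 2.87% of all genes were higher and 1.59% lower (3 of the 32 at an unadjusted p under 0.05, and none with DESeq2). The ADP/ATP carrier Slc25a4 had 883 and 788 CPM in lymphatic cells, against 539 and 545 in arterial, 508 and 504 in capillary, 617 and 598 in tip and 741 and 596 in venous cells. Its isoform Slc25a5 had 531 and 673 CPM in lymphatic cells, against 371 and 389 in arterial, 460.4 and 484 in capillary, 512 and 575 in tip and 369 and 406 in venous cells. Lymphatic Slc25a4 was above all blood libraries and lymphatic Slc25a5 overlapped the tip range, with log2 changes of 0.53 and 0.45 (edgeR adjusted p = 2.49e-05 and 0.000122). The phosphate carrier Slc25a3 rose by 0.24 in lymphatic cells (edgeR adjusted p = 0.00764). Among the others of the family, Slc25a45 fell in lymphatic cells by 2.77 and Slc25a24, a calcium-regulated carrier of ATP and phosphate, rose by 0.90 (adjusted p = 2.79e-06 and 2.28e-05).

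The neutral amino acid carrier Slc38a2 differed between the libraries in every class. It had 330.4 and 442 CPM in lymphatic cells, against 308 and 492 in arterial, 207 and 366 in capillary, 234 and 406 in tip and 283 and 382 in venous cells. Library 2 was the higher one each time. The joint test passed (edgeR adjusted p = 0.0104), and without the library as a block it did not (adjusted p = 0.666).

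A list of 50 other transport genes (ABC carriers, Slco carriers, aquaporins, pumps and channels) gives the setting, and 40 of them could be tested. In lymphatic cells 7 of the 40 rose and 15 fell, where 22.7% and 22.4% of all genes did. The drug exporter Abcb1a had 0.308 and 0.149 CPM in lymphatic cells, against 63.4 and 70.4 in arterial, 35.8 and 43.8 in capillary, 19.4 and 17.6 in tip and 31.1 and 33.1 in venous cells, and the water channel Aqp1 35.7 and 73.1 CPM in lymphatic cells, against 193 and 228 in arterial, 908 and 1180 in capillary, 418 and 475 in tip and 1751 and 1982 in venous cells. Both were lowest in lymphatic cells (log2 change -7.15 and -3.58, edgeR adjusted p = 1.12e-10 and 5.93e-11). Arterial cells were higher in 13 and lower in 6 of the 40 (12.6% and 11.1% of all genes), and tip cells in 4 and 13 (9.97% and 9.02% of all genes). Venous cells were higher in 10 and lower in 1 (9.48% and 6.91% of all genes), and capillary cells in 5 and 3 (2.87% and 1.59% of all genes). The prostaglandin carrier Slco2a1 was highest in venous cells, at 199 and 225 CPM (log2 change 2.18 ± 0.37, adjusted p = 0.000752), and the calcium pump Atp2a3 in arterial cells, at 47.7 and 58.3 CPM, against at most 4.40 CPM in other blood libraries.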

How the data were processed

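Members and gene lists were chosen with earlier results of these data known. The deposited matrices are UMI counts of genes by barcodes, not normalized. Per the submitters' processing notes, the authors used Cell Ranger and the mm10 build. The matrix headers name software version 3.0.2, and the notes name Seurat 3.0.2 without a role. No source used here gives the rule for keeping barcodes, the strandedness of counting or the annotation version. Coordinates and overlaps are those of GENCODE vM21, which held all 145 genes. Of the 145 genes, 24 overlap a gene on the opposite strand, among them Slc7a5, Slc7a7, Slc8a1, Slc16a6, Slc26a10, Slc31a1 and Slc39a9. Slc5a3, Slc10a3 and Slc35a3 overlap a coding gene on their own strand.

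Barcodes with fewer than 500 genes (26 and 45) or over 10% mitochondrial UMIs (240 and 616) were removed, as were 18 doublets called with Scrublet in scanpy 1.11.5 (0.48%). That share is under 0.5% and doublets may remain. No correction for free RNA was made. Each class score was the mean z-score of its markers, none of them a solute carrier, within a library. A cell was gated with a score of at least 0.3, a lead of at least 0.3 over the next class, at least 3 of 8 pan-endothelial markers and no score of 1.5 or more for another cell type. The same cells were gated and tested, which makes p-values too small for genes that vary with the markers.

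UMIs were summed per library and class (1161076 to 6828729 per sum) and tested with edgeR 4.0.16 in R 4.3.3 (TMM, low-count filter, quasi-likelihood F test, Benjamini-Hochberg over 10572 genes, threshold 0.05). The model held class and library, since every class came from both libraries and so the same animals, and left 4 residual degrees of freedom. A change in lymphatic cells is against the mean log level of 4 blood classes and a change in a blood class against that of the other 3. Levels are TMM-scaled CPM without length scaling, so they compare classes within a gene. Those of cell type markers are CPM without the TMM factor. Errors are the SE of a log2 change and the SD of 2 libraries, and intervals and floors (3 UMIs) cover counting error only. DESeq2 1.42.0 and other gates, filters and clusters were alternatives. Genes named with full values were, per comparison, the 6 largest rises and 4 largest falls among genes called with the same direction in both libraries and at least 20 UMIs per library in the higher group. To these came 11 members listed by name or for their UMI totals, some of them already named, which gave 34 genes. Of these genes 1 is left out of the text and figures. Other genes in the text illustrate family counts and were chosen after their values were seen. Families and roles were assigned by hand after the values were seen. Promoter windows are from RefSeq (GRCm38.p6).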

Additional observations from a re-analysis of the deposited data

How the results depend on the processing

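None of the 45 changes named by rule reversed under the 12 alternatives, of which the stricter cell filter gave a value for 42. Of 669 tested repeats of these changes and of 11 joint tests, 605 passed the threshold as before and 64 missed it. DESeq2 called 40 solute carrier genes across the classes (by a likelihood ratio test) in place of 69, 39 in lymphatic cells in place of 68, 22 in arterial cells in place of 38, 1 in capillary cells in place of 5, 16 in tip cells in place of 24 and 8 in venous cells in place of 21. The stricter cell filter (at least 1000 genes and at most 5% mitochondrial UMIs) called 45 across the classes, 42 in lymphatic, 21 in arterial, 1 in capillary, 15 in tip (in place of 24) and 6 in venous cells, with 116 to 171 cells per class left. Capillary calls were 10 without the low-count filter, 8 with the looser gate and 21 with Leiden clusters as classes, where 1 of the 5 was shared.

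The libraries pair the classes, because all classes of a library came from the same animals. Without the replicate block, 60 genes were called across the classes, 59 in lymphatic, 28 in arterial, 2 in capillary, 18 in tip and 11 in venous cells.

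Leaving out a library leaves 1 library per class and no residual degrees of freedom, so it gave values and no test. In each library alone, all 45 named changes kept their direction, but the naming rule had required this, so it is no check. Genes of few UMIs limit what can be said: a level of 0 in a gate allows up to 3 UMIs, or 0.439 to 2.58 CPM. The cause of these shifts was not tested.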
